A study of Mus musculus with 4 samples.

Results

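Voltage-gated sodium and calcium channel subunits, the HCN pacemaker channels and the sodium leak channel Nalcn were examined in C57BL/6 mice at an age of 8 weeks, in tissue of the prelimbic cortex, part of the medial prefrontal cortex. Members were the protein-coding genes whose symbols follow the family patterns Scn (alpha and beta), Cacna, Cacnb, Cacng, Hcn and Nalcn. Of 19175 genes listed in either of the 2 deposited tables, 37 were members, 22 of them pore-forming and 15 auxiliary. The table that compares stress-susceptible with control mice listed 19 of them, the table that compares AAV-CDYL with AAV-GFP listed 36, and 18 were in both. By the same pattern the mouse annotation GENCODE M21 holds 45 genes. The other 8, among them Cacna1d, Cacna2d2, Cacnb2, Cacng4, Cacng7, Scn3a and Scn3b, were in neither table and have no value here.

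There were 4 libraries, 1 per group, so differences describe single libraries and carry no test. The control and susceptible libraries are from work on chronic social defeat, where repeated attack by an aggressor leaves some animals, called susceptible, socially avoidant. Since the labels tag both groups with that stress, they do not say how the control mice were handled. The other mice expressed green fluorescent protein or CDYL, a chromatin corepressor, from an adeno-associated virus (AAV), and neither the promoter of the virus nor whether animals were pooled is stated. Cdyl itself had 2.68 FPKM in the AAV-GFP library and 1052 in the AAV-CDYL one, in the direction of the label. FPKM counts fragments per kilobase in proportion to library size and is scaled for length, so levels of different genes can be set side by side within a library. Effective depth, read from the steps between low values, ranged from 14300000 fragments (control) to 23900000 (AAV-CDYL). A 2-kb transcript at 1 FPKM was backed by between 28.6 and 47.8 fragments. Neither table lists a gene whose values are both above 0 and differ by less than 0.32 on the log2 scale. A member missing from a table has no value there and is not shown to be alike in the pair.

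Sodium channel alpha subunits form the pore that starts and carries the action potential, and beta subunits are single-span membrane proteins that tune their gating and anchor them. Calcium channels have an alpha1 pore with cytosolic beta and extracellular alpha2delta subunits, and open at synaptic terminals and dendrites. Several gamma subunits serve AMPA-type glutamate receptors instead, as their transmembrane regulatory proteins. HCN channels pass a depolarizing current at negative voltage, and Nalcn supplies the resting sodium leak. CDYL is known as a partner of REST, a repressor of neuronal genes that binds a bipartite element called RE1.

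Promoters are shown for Scn8a, the pore gene of the mature axon, for Scn4b and Cacna1i, which were lower in both treated libraries, and for Cacng5. Cacng5 stood above AAV-GFP and above control, but passed the 1.5-fold rule given below only with AAV-CDYL. Each promoter runs from 250 bases before to 50 bases after a RefSeq start on build GRCm38.p6, 5′ to 3′ on the gene's strand. Capitals mark letters of the 6 motifs searched on both strands: the TATA box TATAAA, the GC box GGGCGG, the CCAAT box CCAAT, the cAMP response core TGACG, and the left and right arms of RE1, CAGCACC and GGACAG. None of these strings contains another.
Scn8a, chr15:100870395-100870694, plus strand: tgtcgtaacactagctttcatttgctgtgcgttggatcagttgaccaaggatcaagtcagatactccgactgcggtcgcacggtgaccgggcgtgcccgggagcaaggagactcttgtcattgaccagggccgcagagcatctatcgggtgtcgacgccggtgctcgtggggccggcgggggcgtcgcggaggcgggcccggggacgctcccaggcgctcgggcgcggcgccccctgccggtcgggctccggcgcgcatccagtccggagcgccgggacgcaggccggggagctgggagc
Scn8a, chr15:100936021-100936320, plus strand: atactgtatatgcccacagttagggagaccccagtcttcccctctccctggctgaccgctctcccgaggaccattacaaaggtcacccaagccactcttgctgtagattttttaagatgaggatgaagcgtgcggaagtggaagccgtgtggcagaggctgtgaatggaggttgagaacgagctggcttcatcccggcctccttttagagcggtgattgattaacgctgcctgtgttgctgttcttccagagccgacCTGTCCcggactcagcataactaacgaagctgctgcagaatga
Scn4b, chr9:45138374-45138673, plus strand: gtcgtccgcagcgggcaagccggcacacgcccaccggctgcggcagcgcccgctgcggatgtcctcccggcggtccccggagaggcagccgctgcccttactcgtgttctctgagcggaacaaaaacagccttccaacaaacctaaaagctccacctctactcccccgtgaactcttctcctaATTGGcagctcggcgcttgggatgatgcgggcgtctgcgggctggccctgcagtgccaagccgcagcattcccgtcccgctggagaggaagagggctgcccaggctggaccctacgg
Cacna1i, chr15:80286988-80287287, plus strand: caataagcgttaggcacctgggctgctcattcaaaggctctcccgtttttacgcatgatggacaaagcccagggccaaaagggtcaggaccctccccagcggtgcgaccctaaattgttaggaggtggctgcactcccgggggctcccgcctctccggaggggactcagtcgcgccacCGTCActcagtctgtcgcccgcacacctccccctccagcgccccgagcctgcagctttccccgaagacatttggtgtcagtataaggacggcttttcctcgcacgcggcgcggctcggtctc
Cacng5, chr11:107911313-107911612, minus strand: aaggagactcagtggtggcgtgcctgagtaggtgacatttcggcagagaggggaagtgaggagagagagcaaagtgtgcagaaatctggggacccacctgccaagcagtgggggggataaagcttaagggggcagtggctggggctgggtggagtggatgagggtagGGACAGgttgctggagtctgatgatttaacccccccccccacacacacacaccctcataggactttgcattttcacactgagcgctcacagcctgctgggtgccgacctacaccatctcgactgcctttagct
Cacng5, chr11:107915006-107915305, minus strand: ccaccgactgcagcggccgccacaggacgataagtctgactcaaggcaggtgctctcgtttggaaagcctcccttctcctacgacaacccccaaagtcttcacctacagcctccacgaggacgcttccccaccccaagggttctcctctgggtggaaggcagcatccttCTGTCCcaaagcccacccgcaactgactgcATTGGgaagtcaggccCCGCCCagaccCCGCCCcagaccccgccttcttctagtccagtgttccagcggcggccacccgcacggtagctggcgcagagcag

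The upstream Scn8a promoter has a GC content of 70.0% with 38 CpG and none of the motifs. The downstream one has 53.3% and 12 CpG, with the right RE1 arm once, read on the opposite strand as CTGTCC. Scn4b, at 66.3% GC with 26 CpG, holds 1 CCAAT box, and Cacna1i, at 62.7% with 23 CpG, holds 1 cAMP response core. Both Cacng5 promoters hold the right RE1 arm, and the upstream one, at 107915006 to 107915305, also holds 2 GC boxes and a CCAAT box. RefSeq promoters were matched for 29 of the 37 members, 38 windows in all. Their median GC content was 58.3%, against 52.7% over all 32851 windows of the same length, with a median of 9 CpG against 7. The GC box occurred in 14 of the 38 (36.8%) and in 35.7% of all windows. The right RE1 arm occurred in 7 (18.4%, against 22.2%) and the left arm in 1, that of Nalcn (2.63%, against 7.14%). The CCAAT box occurred in 8 (21.1%, against 37.4%), the cAMP core in 5 (13.2%, against 20.8%) and the TATA box in 1 (2.63%, against 13.6%). These matches describe letters in the windows and show no binding.

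In the AAV-CDYL library most channel subunits stood below their AAV-GFP level. The count of higher and lower genes used a 1.5-fold difference on the log2(FPKM + 1) scale, among genes at 1 FPKM or more in at least 1 library of the pair, a floor that 27 of the 36 listed members passed. Of the 27, 13 were lower and 2 higher, while over all 8047 listed genes past the floor 14.4% were lower and 31.3% higher. Centred on the median of all listed genes (0.08), these shares were 20.4% and 27.6%, and 17 members were lower. Counting any amount, 25 of the 27 were below AAV-GFP, against 46.6% of all genes. The median difference over the 27 was -0.58 on the log2(FPKM + 1) scale, and 0.30 over all genes. With the floor set on AAV-GFP alone, a choice made after seeing the data, 13 of 26 members were lower and 1 higher. Over all genes 17.4% were then lower and 21.2% higher, and the medians were -0.59 for members and -0.32 for all genes. Because differences near 0 are unlisted, such medians lie on one side or the other of a gap around 0. The 25 members below stood at between 27.9% and 77.8% of their AAV-GFP level, with a median of 63.4%. The value was -0.60 for Nalcn, just inside the threshold, and just outside it -0.58 for Scn2b and -0.58 for Cacna1c.

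**Figure D1:**
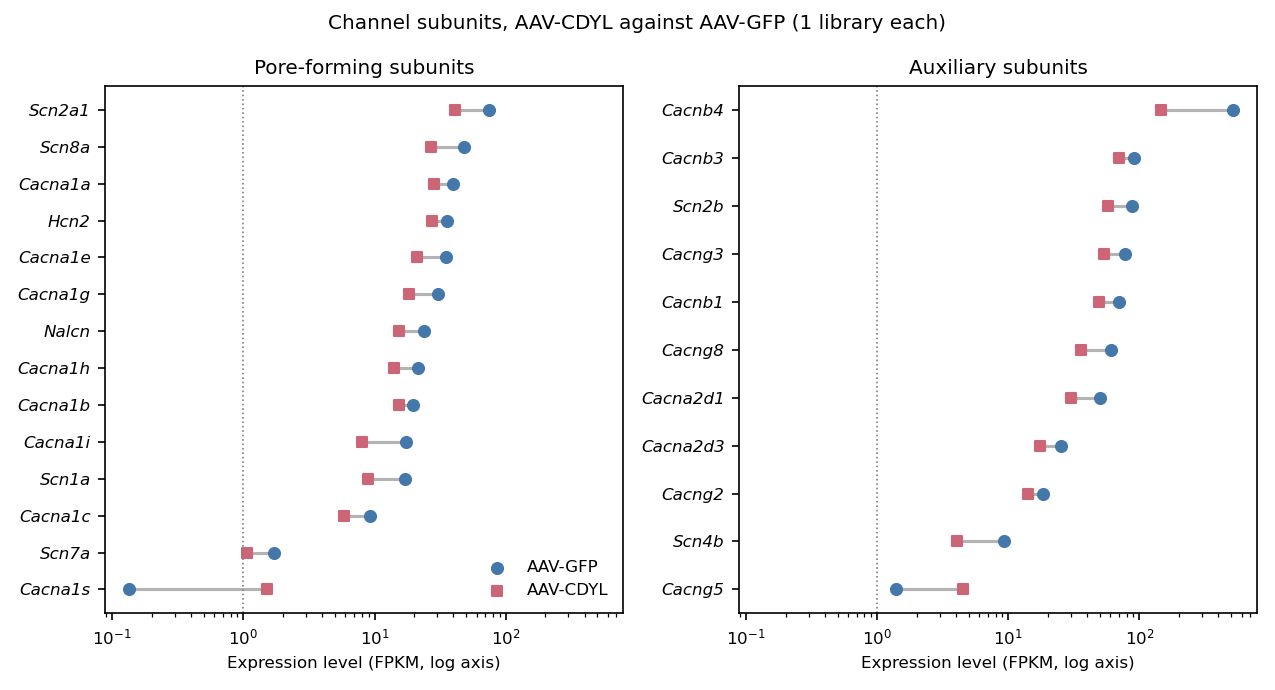
Expression level (FPKM, log axis) of 25 of the 27 subunits past the floor in the AAV-GFP (circles) and AAV-CDYL (squares) libraries, 1 library each, with the floor as a dotted line. Pore-forming and auxiliary subunits are in separate panels; Cacna1s and Cacng5 are the 2 whose AAV-CDYL point lies to the right.

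Among the pore-forming subunits of sodium channels, Scn2a1, Scn8a and Scn1a made up nearly all of the listed level. Scn2a1, the listed symbol of Scn2a, whose channel fills the axon initial segment of excitatory neurons early in life, had 74.6 FPKM in the AAV-GFP and 41.2 in the AAV-CDYL library (chromosome 2, 65620771 to 65767447). Scn8a, whose channel dominates the mature initial segment and nodes of Ranvier, stood at 47.9 and 27.0 (chromosome 15, 100869858 to 101045938). Its level with AAV-CDYL was thus 0.563 of that with AAV-GFP, with a 95% counting interval of 0.526 to 0.602. Intervals of this kind are exact binomial ones on fragments approximated from FPKM, depth and the median annotated transcript length, and cover counting error only. Where short annotated transcripts lower that median, the fragments are understated and the interval is too wide. Cacna1i (586.5 bases) is such a case, as is Scn8a (2110 bases, against 7031 for Scn1a). Scn1a, prominent in fast-spiking interneurons, stood at 17.2 and 8.85, a ratio of 0.514 (0.482 to 0.547). All 3 were counted as lower, with differences of -0.84 for Scn2a1, -0.81 for Scn8a and -0.89 for Scn1a.

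The alpha subunits differed in sum far more than in proportion. Over the 8 listed ones the sum was 142 FPKM for AAV-GFP and 78.5 for AAV-CDYL, a ratio of 0.554. Scn2a1 made up 52.6% of that sum and then 52.5%, Scn8a 33.8% and 34.4%, and Scn1a 12.1% and 11.3%. Scn7a, which encodes a sodium sensor rather than a classical voltage-gated channel, stood at 1.71 and 1.06 and was not counted. Scn9a, Scn10a, Scn11a and Scn4a, best known from sensory neurons and, for Scn4a, skeletal muscle, were all under 0.4 FPKM in both libraries. The AAV-GFP library had 0 for Scn11a and Scn4a.

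Sodium channel paralogs share sequence, and fragments of such genes could be misassigned. Of the 50-base words in annotated Scn8a transcripts, 0.0374% also stood in a transcript of another gene. The shares were 4.03% for Scn1a, 5.76% for Scn2a and 0 for Scn4b. The gene sharing most words was Scn2a for Scn1a and Scn3a for Scn2a, though Scn2a shared words with 458 genes.

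The sodium channel beta subunits Scn2b and Scn4b were below AAV-GFP as well. Scn2b, which is disulfide-linked to the alpha subunit, stood at 87.3 FPKM for AAV-GFP and 58.0 for AAV-CDYL, and Scn4b, associated with resurgent sodium current, at 9.19 and 4.09. Scn4b was counted as lower (-1.002), and Scn2b was not (-0.58). The ratio of Scn4b was 0.445 (0.399 to 0.496). Scn2b (45117876 to 45130070) and Scn4b (45138437 to 45154152) are neighbours on chromosome 9. The Cuffdiff locus of Scn2b also holds Amica1.

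Of the high-voltage calcium channel pores past the floor, 1 of 5 was counted as lower and 1 as higher. Of the low-voltage ones, 2 of 3 were lower. Over all genes past the floor, 14.4% were lower and 31.3% higher. Cacna1a, the pore of P/Q-type channels at fast synapses, stood at 39.4 with AAV-GFP and 28.3 with AAV-CDYL, and Cacna1b, of N-type channels, at 19.8 and 15.4. Neither passed the threshold, with differences of -0.46 and -0.34. Cacna1e, of R-type channels, did, at 34.8 and 21.3 (-0.69). Cacna1c, the main L-type pore of cortex, stood at 9.25 and 5.86, a difference of -0.58 just under the threshold. For the high-voltage group of 6 listed genes, which also holds Cacna1f and Cacna1s, the sum was 103 and 72.4 FPKM.

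The 3 low-voltage, T-type pores, which drive burst firing, had a sum of 69.2 and then 40.6. Cacna1g stood at 30.5 and 18.4, Cacna1h at 21.5 and 14.2, and Cacna1i at 17.3 and 8.02. Of these, Cacna1g (-0.70) and Cacna1i (-1.02) were counted as lower, and Cacna1h (-0.57) was not. Cacna1i, on chromosome 15 from 80287238 to 80398279, had a ratio of 0.465 (0.366 to 0.582), and its share of the T-type sum was 24.9% and 19.8%. In the authors' deposited table it was the only member past the floor with an unadjusted p under 0.05, at p = 0.031 and q = 0.816. Of all genes past the floor, 9.39% had such a p.

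Cacna1s, the pore of skeletal muscle, was an exception, at 0.134 FPKM for AAV-GFP and 1.52 for AAV-CDYL. It entered only through its AAV-CDYL value, rests on about 19 and 220 fragments, and 20.0% of its exonic bases also lie in Gm37759, an antisense gene that libraries without strand cannot separate from it. Cacna1f, the retinal L-type pore, was under 0.1 FPKM in both libraries.

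The pacemaker subunit Hcn2 stood at 35.8 with AAV-GFP and 27.3 with AAV-CDYL and was not counted (-0.38). Hcn4, the sinoatrial and thalamic subunit, stood at 0.998 and 0.604, under the floor. Nalcn stood at 24.01 and 15.5, a ratio of 0.645 (0.614 to 0.678).

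The auxiliary subunits of calcium channels included the largest difference of the family, in Cacnb4. This beta subunit was listed at 521 FPKM for AAV-GFP and 146 for AAV-CDYL, several times the level of Cacnb3 (91.2 and 70.4) and Cacnb1 (69.7 and 49.3). Its Cuffdiff locus is shared with A430018G15Rik, a gene on the opposite strand, and 16.0% of its exonic bases lie in that gene, so its level is uncertain. In the authors' deposited table its unadjusted p is 0.366. Cacnb1 shares a locus with the abundant ribosomal gene Rpl19. Cacna2d1, the gabapentin-binding subunit, stood at 49.7 and 30.0 and was counted as lower (-0.71), while Cacna2d3 stood at 25.4 and 17.5 (-0.51). Cacna2d4 was under the floor, at 0.734 and 0.411.

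Of the listed gamma subunits that regulate AMPA receptors, Cacng3 and Cacng8 had the highest levels; Cacng4 and Cacng7 have no value here. Cacng8, enriched in forebrain, stood at 61.1 with AAV-GFP and 35.5 with AAV-CDYL and was counted as lower (-0.76). Cacng3, at 77.0 and 54.0 (-0.50), and Cacng2, stargazin, at 18.3 and 14.1 (-0.36), were not. Cacng5, of the second type of these regulators, was higher, at 1.39 and 4.51 FPKM, a ratio of 3.24 (2.63 to 4.003) on about 118 and 398 fragments. Cacng6 and Cacng1, known from skeletal muscle, were under 0.5 FPKM in both libraries, with Cacng1 at 0 in AAV-GFP. Of the pore-forming subunits past the floor, 8 of 15 were lower and 1 higher, and of the auxiliary ones 5 of 12 were lower and 1 higher. Over all genes past the floor, 14.4% were lower and 31.3% higher. The median differences were -0.60 for the pore-forming subunits, -0.55 for the auxiliary ones and 0.30 for all genes. With the floor set on AAV-GFP alone, the median of all genes was -0.32.

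In the susceptible library the members listed lay mostly below control, by smaller amounts. The floor was passed by 13 of the 19, of which 3 were lower and 1 higher by the 1.5-fold rule. Over all 5334 genes past the floor, 10.8% were lower and 18.9% higher. Counting any amount, 11 of the 13 were below control, against 47.7% of all genes, at between 47.5% and 79.5% of its level. The median difference was -0.41 for the 13 and 0.24 for all genes. After centring on the median of all listed genes, 4 of the 13 were lower and 1 higher, against 14.0% and 16.2% of all genes. With the floor set on control alone, the medians were -0.43 for members and -0.29 for all genes. Of the 12 members past that floor 3 were lower and 0 higher, where 12.4% of all genes were lower and 13.5% higher. Scn8a and Scn2a1 are not listed in this table, nor are the high-voltage pores other than Cacna1f.

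**Figure D2:**
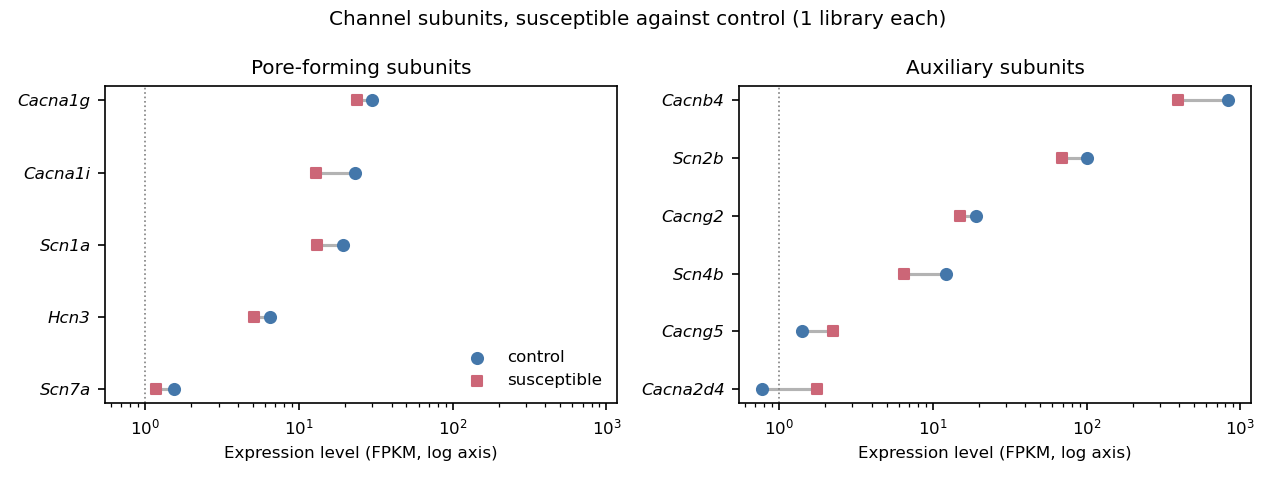
Expression level (FPKM, log axis) of 11 of the 13 subunits past the floor in the control (circles) and susceptible (squares) libraries, 1 library each, with the floor as a dotted line. Each pore-forming subunit shown has its susceptible point to the left; of the auxiliary ones, Cacng5 and Cacna2d4 have it to the right.

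All 6 pore-forming members past the floor stood below control, and 1 of them, Cacna1i, was counted as lower. Over all genes past the floor, 47.7% stood below control and 10.8% were counted as lower. Cacna1i had 23.2 FPKM in the control and 12.9 in the susceptible library, a ratio of 0.557 (0.450 to 0.683), and Cacna1g had 29.8 and 23.7. Scn1a stood at 19.4 and 13.1 (-0.54) and Scn7a at 1.53 and 1.18 (-0.21). Hcn3, listed in this table only, stood at 6.49 and 5.12 (-0.29). Of its exonic bases, 17.1% also lie in Pklr.

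Of 7 auxiliary members, Scn4b and Cacnb4 were counted as lower and Cacna2d4 as higher, where 10.8% of all genes were lower and 18.9% higher. Scn4b had 12.1 in the control and 6.53 in the susceptible library, a ratio of 0.539 (0.488 to 0.595). It was the only member past the floor with an unadjusted p under 0.05 in the authors' deposited table, p = 0.0088 with q = 0.773, where 8.94% of all genes had one. Scn2b stood at 100.3 and 69.2 (-0.53). Cacnb4 was listed at 827 and 393, with the same doubt about its locus. Cacng2 stood at 19.1 and 14.9 (-0.33), and Cacng5 at 1.41 and 2.23 (0.42). Cacna2d4 stood at 0.780 and 1.77, entering through its susceptible value on about 53 and 197 fragments.

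Members under the floor in this table, Cacna1f, Cacng6, Hcn4, Scn10a, Scn11a and Scn4a, ranged from 0 to 0.841 FPKM. Among them Scn10a, a pore of nociceptive sensory neurons, stood at 0.0737 and 0.470 and Hcn4 at 0.477 and 0.841.

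The pairs share no library. Of the 18 members in both tables, 11 passed the floor in both, and 10 of these were below the reference library in both pairs. Cacng5 was above it in both. Members under the floor in either table are outside these counts, and not all of them had the same sign in both pairs. Cacna2d4, the member counted as higher with stress (0.780 and 1.77 FPKM), stood at 0.734 with AAV-GFP and 0.411 with AAV-CDYL. Across all 3242 genes past the floor in both tables, 82.3% had the same sign in both pairs and 36.0% were below the reference in both. Scn4b, Cacna1i and Cacnb4 were counted as lower in both pairs, 3 of 11, where 4.32% of all genes were. In all 11 the AAV difference was the larger in size, as it was in 65.3% of all genes. Stress and AAV differences were -0.80 and -1.02 for Cacna1i, -0.80 and -1.002 for Scn4b, and -1.07 and -1.83 for Cacnb4. They were -0.33 and -0.36 for Cacng2, -0.21 and -0.40 for Scn7a, and 0.42 and 1.203 for Cacng5.

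**Figure D3:**
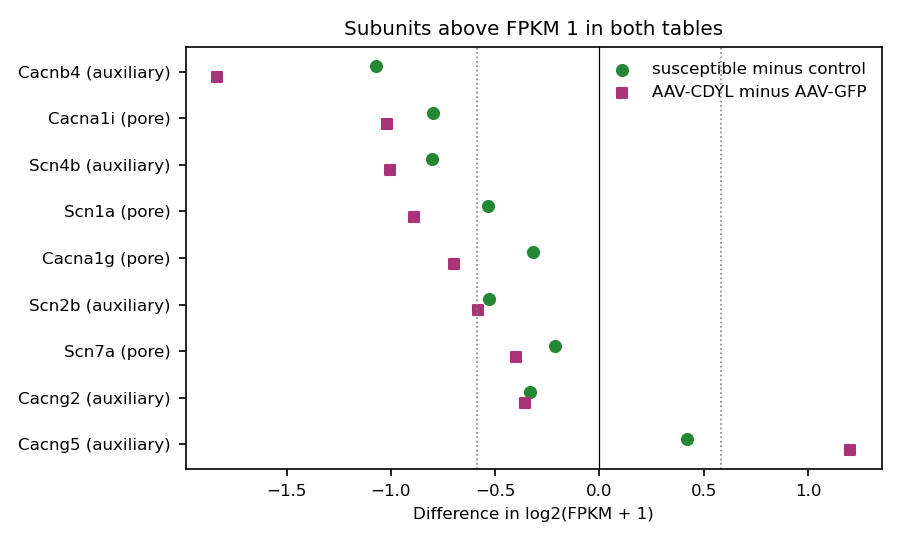
Difference in log2(FPKM + 1) of 9 of the 11 subunits past the floor in both tables, susceptible minus control (circles) and AAV-CDYL minus AAV-GFP (squares), with the 1.5-fold thresholds dotted. All points but those of Cacng5 lie left of 0, and each square lies farther from 0 than its circle.

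The control and AAV-GFP libraries come from separately scaled tables, and their levels are set side by side only to show how far reference libraries lie apart. Cacna1g stood at 29.8 and 30.5 and Cacng5 at 1.41 and 1.39. Farther apart were Cacna1i, at 23.2 and 17.3, Scn4b, at 12.1 and 9.19, and Cacnb4, at 827 and 521. AAV-GFP minus control ranged from -0.67 to 0.10 over the 11, with 6 within 0.15. The distance between the reference libraries was -0.41 for Cacna1i and -0.36 for Scn4b, about as large as several differences of the stress pair.

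**Figure D4:**
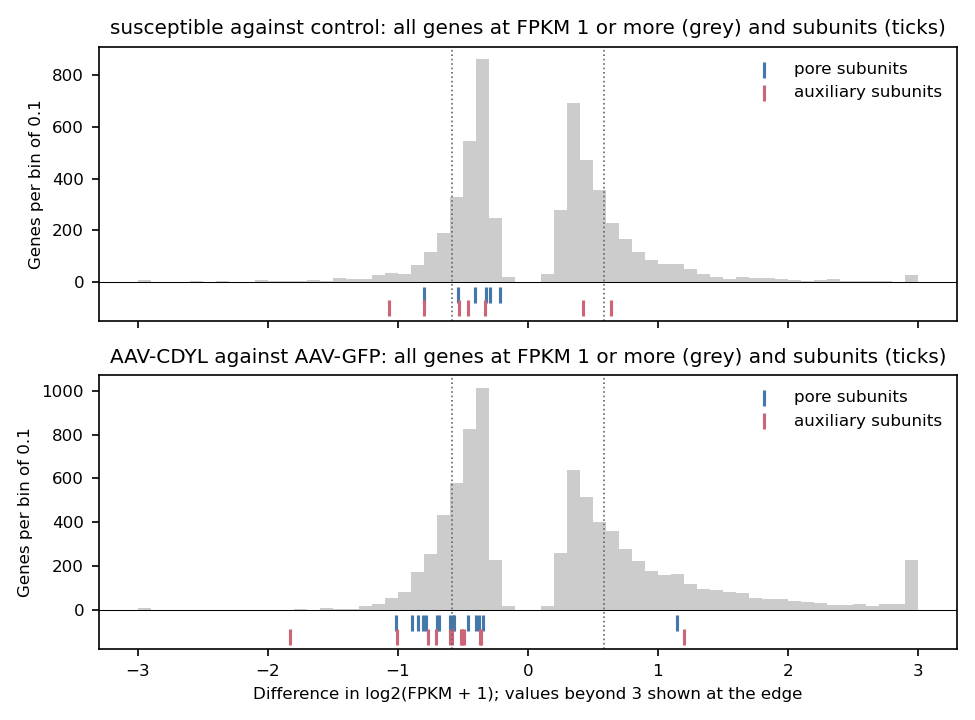
Distribution of differences in log2(FPKM + 1) over all listed genes at 1 FPKM or more (grey, genes per bin of 0.1) with pore-forming and auxiliary subunits as ticks below, for both comparisons, and the 1.5-fold thresholds dotted. The gap around 0 is the range the tables do not list, and 25 of 27 ticks for AAV-CDYL lie left of it.

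Genes that build or hold channel complexes were taken from lists drawn up with earlier results of these data known. Of 15 genes of the axon initial segment and node, 14 were past the floor in the AAV table, with 7 lower and 0 higher, where 14.4% of all genes were lower and 31.3% higher. Cntnap1, the paranodal adhesion protein, stood at 48.0 and 21.1, Kcnq3, a subunit of the M-current channel, at 23.3 and 11.2, and Kcna2, a juxtaparanodal potassium channel, at 31.6 and 15.4. Ank3, the ankyrin that anchors sodium channels there, stood at 127 and 94.0 (-0.43) and was not counted. With stress, 5 of the 15 were past the floor, 1 of them lower, Cntnap2, at 43.8 and 27.4, where 10.8% of all genes were lower.

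Fgf12, an intracellular factor that binds sodium channel tails, stood at 59.9 and 38.5 with AAV-CDYL and was counted as lower (-0.62), and Fgf11, of the same group, stood at 5.96 and 3.93 (-0.50). With stress, Fgf12 stood at 63.4 and 44.4 and Fgf13 at 75.8 and 56.9, neither past the threshold. Of the NALCN complex, Unc80 was lower with AAV-CDYL, at 40.8 and 23.9 (-0.75), while Unc79, at 11.6 and 7.85, and Fam155a, at 35.5 and 24.4, were not counted. None of the 4 genes of that list was in the stress table. Pex5l, which traffics HCN channels, stood at 87.6 and 59.2 (-0.56).

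Of 13 calcium channel partners, 9 were past the floor with AAV-CDYL, 4 lower (44.4%, against 14.4% of all genes) and 2 higher (22.2%, against 31.3%). Rims1, a scaffold of the release site, stood at 80.0 and 45.6, and Rimbp2, which links it to calcium channels, at 54.0 and 31.5. Rrad and Gem, small GTPases that inhibit calcium channels, were the 2 higher, at 1.73 and 3.93 and at 0.898 and 2.31. With stress, 6 were past the floor, and Stac, an adaptor of calcium channels, was the only one counted, lower at 2.22 and 0.894. Over all genes with stress, 10.8% were lower. Stac was also among the 4 lower with AAV-CDYL, at 1.11 and 0.293.

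Neuronal markers also lay mostly below the reference libraries. With AAV-CDYL, 8 of 10 pan-neuronal markers were listed and past the floor, all below AAV-GFP. Of these, 5 were counted as lower, and their median was -0.64. Over all genes past the floor, 46.6% were below AAV-GFP and 14.4% were counted as lower. The median of all genes was 0.30, and with stress 0.24. With the floor set on the reference library alone, these were -0.32 and -0.29. The summed level of the pan-neuronal markers was 3712 FPKM for AAV-GFP and 2431 for AAV-CDYL. The 6 listed excitatory markers of 7 had a median of -0.55 (sums of 2407 and 1592) and the 6 listed inhibitory markers of 8 a median of -0.59 (252 and 171). With stress, 7 pan-neuronal markers had a median of -0.47 (2426 and 1744), 3 excitatory ones -0.54 (986 and 728) and 3 inhibitory ones -0.33 (149 and 129). Those 3 went opposite ways, with Vip higher (12.7 and 27.2), Pvalb lower (33.1 and 19.5) and Gad1 at 104 and 82.4. None of these listed neuronal markers was at 0. In bulk tissue, fewer neurons and less of these RNAs per neuron cannot be told apart. The part of neuronal share in the channel differences was not tested.

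Glial, vascular and blood markers had higher sums in both treated libraries, though the median difference of the microglial list was 0.01 with stress. Summed oligodendrocyte markers, 10 of 10 listed, stood at 656 and 2552 FPKM with AAV-GFP and AAV-CDYL, and at 613 and 1583 in control and susceptible. Microglial sums, over 8 of 8 and 6 of 8, were 163 and 1318, and 159 and 181. With stress 3 microglial markers were above control and 3 below. Of these, Ctss (33.4 and 51.5) was counted as higher and P2ry12 (25.4 and 7.85) as lower. Astrocyte sums, over 6 of 8 in each table, were 206 and 699, and 402 and 666. Gfap, a marker of reactive astrocytes, supplied much of the first difference, at 5.85 and 386 with AAV-GFP and AAV-CDYL, while Gjb6, an astrocytic connexin, was lower there, at 44.7 and 19.5. With stress Gjb6 was higher, at 17.4 and 63.0. Aqp4, at 9.87 and 6.36, was then the 1 astrocyte marker below control, with 5 above. Oligodendrocyte precursor sums, over 3 of 4 in each, were 15.2 and 21.7, and 12.3 and 17.7. Endothelial sums, over 5 of 6 in each, were 71.1 and 156, and 73.2 and 215. Leukocyte sums, over 8 of 8 and 2 of 8, were 1.42 and 33.4, and 38.0 and 150 (S100a8 supplies nearly all of the latter). Cd3g, Cd8a and Nkg7 were at 0 with AAV-GFP, and Ms4a1 in control. Striatal neuron sums, over 4 of 7 and 6 of 7, were 15.1 and 26.0, and 46.9 and 101. Their part in the channel differences was not tested.

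**Figure D5:**
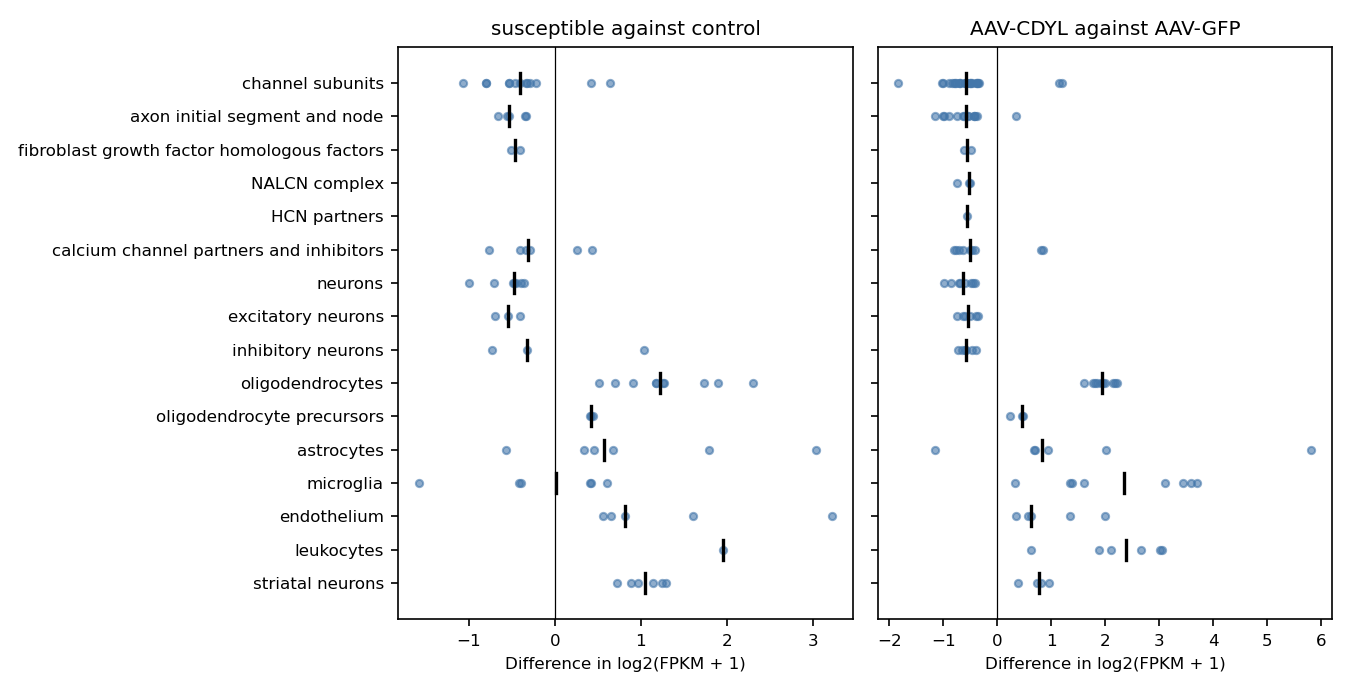
Difference in log2(FPKM + 1) of each gene past the floor (points) and list medians (bars) for channel subunits, 5 lists of channel partners and 10 lists of cell type markers, in both comparisons. Neuronal lists other than the striatal one and the partner lists with genes past the floor have medians left of 0, as do the channel subunits (with stress, the NALCN complex and HCN partner lists have no such gene), while oligodendrocyte, astrocyte, endothelial and striatal lists have medians right of it.

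The differences also varied with gene length. Members are long genes, with a median span of 111 kb among those past the floor in the AAV table, against 26.3 kb for all protein-coding genes past it. Genes were split by span into 4 bins of nearly equal size. In the longest bin (68.8 kb and up) 25.8% were lower with AAV-CDYL, and in the shortest 9.30%. The longest bin held 16 of the 27 members. By transcript length the shares lower were 21.6% in the longest bin and 8.95% in the shortest. In the stress table they were 10.6% and 9.28% by span, and 9.20% and 12.3% by transcript length. The part of length in the channel differences was not tested.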

How the data were processed

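Libraries of prelimbic cortex RNA, 1 for each of 4 groups, were made from 1 µg of total RNA per the labels' protocols, with a kit that keeps no strand. For each pair the authors deposited gene-level FPKM, which per the submitters' processing notes come from Cuffdiff on mm10. Which aligner, annotation and version numbers were used is not given in the sources used here. The authors' deposited p-value and q-value of a gene set 1 library against another and are quoted only as theirs. The susceptible column was matched by title although its header lacks a letter. The tables were normalized separately.

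Differences of log2(FPKM + 1) were taken within a table, with a floor of 1 FPKM and a 1.5-fold rule. The members and lists were chosen with earlier results of these data known. Members past the floor could be named, and of each partner list the 3 genes with the largest difference. Ank3, Rimbp2 and the AAV-CDYL comparison of Stac fall outside that rule and were chosen after their values were seen. Lengths, spans and overlaps came from GENCODE M21, and promoters from RefSeq, both on the build of the files. Depth was estimated on genes with a single annotated transcript, as the scale at which at least 93.3% of their low values lay within 0.15 of a whole fragment. Counting intervals are 95% Clopper-Pearson. The counting rule was tested on simulated data with 2-fold differences planted in genes at a mean of 5 FPKM or more, with counting error only. It was not tested at 1.5-fold differences, near the floor of 1 FPKM or with spread between animals. Alternatives covered the pseudocount (0.1 and 0.5), the floor (none, or 5 FPKM), a 2-fold rule and 2 other scalings. The software was matplotlib 3.10.9, scipy 1.17.1, pandas 2.3.3 and numpy 2.4.6 under Python 3.11.15. Some genes are counted in the totals but not reported here by name.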

Additional observations from a re-analysis of the deposited data

How the results depend on the processing

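With AAV-CDYL, the count of lower members was between 11 and 17 in every alternative but the 2-fold rule, where it was 3. Of all genes, 1.8% were lower under the 2-fold rule, and between 7.92% (no floor) and 20.4% (centred) in the others. The count of higher members, 2 as reported, was 0 with a floor of 5 FPKM, where 26.2% of all genes were higher. It was 1 without members in a shared locus (32.7% of all genes) and 1 with the floor set on the AAV-GFP library (21.2%). The last 2 alternatives were chosen after seeing the data. The median of the members stayed between -0.66 and -0.50, while that of all genes, 0.30 as reported, was -0.34 with the floor of 5 FPKM, and with stress it was 0.24 and -0.33. With stress, the count of lower members was 1 under the 2-fold rule (2.55% of all genes) and 5 with a common upper quartile (13.7%). The count of higher members was 2 with a pseudocount of 0.1, and 0 with a floor of 5 FPKM, with the 2-fold rule and with the floor set on control. Over all genes the shares higher were 27.8%, 15.5%, 6.86% and 13.5%, in that order. The median without a floor was -0.29 for members and 0.06 for all genes. No member past the floor changed sign under another pseudocount, floor, fold rule or scaling. After centring, 11 of 40 member values lay outside the counting interval of their FPKM ratio, with upper-quartile scaling 5, and with each smaller pseudocount 1. That interval is for the ratio without a pseudocount. The values of Cacna1s and Cacng5 with AAV-CDYL and of Cacna2d4 with stress lay outside it already as reported. Nalcn lies within 0.02 of the threshold, as do Scn2b, Cacna1c and Cacna1h on its other side. No paired analysis was possible because each group has 1 library. With 1 library per group, depth limits only counting error, and the spread between animals is unknown.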
